A study of Mus musculus with 20 samples.

Results

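The genes described here are 10 immediate early and AP-1 genes, Fos, Fosb, Fosl1, Jun, Junb, Egr1, Ier2, Ier3, Atf3 and Myc, chosen by name and read from abdominal mouse skin on Affymetrix arrays. A member was measured where a probe set carried its symbol and no other; where a gene had several such probe sets, the one with the highest mean over the 20 arrays would stand for it. This held for 9 of the 10 members, each with 1 probe set, among 22180 genes in all. Fosl1 shared its probe set with Ccdc85b and has no value here. The study held 20 mice in 4 groups of 5. All mice carried both floxed copies of Zfp36 (zfp36 fl/fl). The knockout (KO) mice carried in addition a Cre recombinase under the keratin 14 promoter (zfp36 fl/fl K14 cre), active in basal keratinocytes and their progeny, so other skin cells keep the gene, and the controls were littermates without Cre. Skin of each genotype received imiquimod, an agonist of Toll-like receptor 7, or a mock treatment on 5 consecutive days and was taken 4 hours after the last application. The labels state neither age nor sex nor strain, and p-values measure the spread between these mice.

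Immediate early genes are transcribed within minutes of a growth factor, stress or inflammatory signal without need for new protein, mostly through MAP kinases that act on factors already bound at their promoters, and the messenger RNAs are short-lived. FOS and JUN family proteins pair through leucine zippers to form AP-1, a transcription factor that in epidermis drives genes of proliferation, differentiation and inflammation. Many of these messenger RNAs carry AU-rich elements, the sequences bound by tristetraprolin, the product of Zfp36, which promotes their decay.

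The promoters of Fos, Fosb and Ier3 are shown because Fos and Fosb varied together from mouse to mouse and Ier3 had the largest response to imiquimod among the members. The sequences are the 250 bases before the RefSeq start in GRCm38.p6, at chr12:85473640-85473889 (plus strand), chr7:19310046-19310295 (minus strand) and chr17:35821463-35821712 (plus strand), written 5′ to 3′ with the motifs named below in capitals.
Fos: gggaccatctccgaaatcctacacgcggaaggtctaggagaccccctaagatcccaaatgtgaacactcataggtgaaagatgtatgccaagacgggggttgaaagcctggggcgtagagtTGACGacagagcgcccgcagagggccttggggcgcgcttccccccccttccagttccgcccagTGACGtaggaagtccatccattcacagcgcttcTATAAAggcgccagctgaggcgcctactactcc
Fosb: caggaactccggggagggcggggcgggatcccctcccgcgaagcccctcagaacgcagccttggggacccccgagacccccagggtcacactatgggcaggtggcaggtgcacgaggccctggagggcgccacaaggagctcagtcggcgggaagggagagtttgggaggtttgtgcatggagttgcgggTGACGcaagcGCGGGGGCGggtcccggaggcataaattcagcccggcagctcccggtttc
Ier3: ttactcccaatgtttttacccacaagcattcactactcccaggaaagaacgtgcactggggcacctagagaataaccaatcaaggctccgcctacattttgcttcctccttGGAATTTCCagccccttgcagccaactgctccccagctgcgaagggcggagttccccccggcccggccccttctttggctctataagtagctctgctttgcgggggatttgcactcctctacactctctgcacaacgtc
Fos held TGACG, the core of the cyclic AMP response element, at positions -129 to -125 and -66 to -62 from the start, and a TATAAA box at -33 to -28. Fosb held TGACG at -60 to -56 and GCGGGGGCG, the EGR site, at -50 to -42. The Fosb window was counted from a start inside the gene interval given for it below, chr7:19302696-19310118. Both of its motifs lie within that interval. Ier3 held a match to GGANTTTCC, which resembles a site for NF-kB, at -139 to -131. RefSeq promoters, 300 bases each with 50 after the start, were at hand for 6 members (Fos, Fosb, Jun, Junb, Ier3 and Atf3), and both strands were searched. Among those of the other 3, TGACG was also in Junb and Atf3. TGACG occurs in 20.8% of 32851 promoters of this length, TATAAA in 13.6%, GCGGGGGCG in 2.91% and GGANTTTCC in 1.25%. No match to TGANTCA, the AP-1 site (7.81% of promoters), TGACGTCA (1.79%), the CArG box of serum response factor (1.63%) or CACGTG, the MYC site (7.15%), lay in these 6 windows. TGACG lies within TGACGTCA. Only matches to the patterns as written were counted, so near matches to TGACGTCA, such as TGACATCA in the Jun window, were not. Bases more than 250 before the start were not searched. TGACG and GGANTTTCC were added to the search after the sequences had been read.

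Values are given on a scale taken as log2. Zfp36 checked the genotype labels: it was 4.08-fold lower in KO than control skin under mock treatment and 3.03-fold lower under imiquimod, with no overlap in either (exact two-sided permutation p = 0.00794 each, the smallest that 5 against 5 can give); in the limma fit over all genes it did not pass (adjusted p = 0.999 and 0.221). The KO mice kept a spread of Zfp36, from 3.47 to 7.12 in mock and from 5.47 to 7.41 in imiquimod skin. Array medians ran from 4.94 to 5.04. Keratinocyte markers were high in all 20 arrays, with a mean over 6 of 7 listed genes of 10.10 to 11.26. In each group 1 array stood apart in the 14 hair shaft and follicle markers: control mock replicate 5 (6.06 against a group median of 10.20), control imiquimod replicate 5 (9.47 against 5.90), KO mock replicate 3 (6.02 against 9.77) and KO imiquimod replicate 1 (9.21 against 5.92). Without these 4 arrays the members called were the same in number, 3 in each imiquimod comparison and 0 in the other 3 comparisons. In whole skin, fewer cells of a type and less RNA per cell cannot be told apart.

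Imiquimod raised Ier3, Myc and Junb in both genotypes and left no other member past the threshold. Ier3, an early response gene tied to cell survival and NF-kB signalling, changed most, 2.48-fold in controls and 2.33-fold in KO mice. Myc, which encodes the growth regulator MYC, rose 1.48-fold and 1.55-fold. Junb, which encodes the AP-1 subunit JUNB, rose 1.37-fold and 1.62-fold. Thus 3 of 9 members rose in controls, where 6.47% of all 22180 genes rose, and the same 3 rose in KO mice, where 11.1% of all genes rose. An unadjusted p under 0.05 was found for 4 of 9 members in each genotype, against 23.9% of all genes in controls and 31.2% in KO mice. The median log2 difference of the members was 0.26 in controls and 0.23 in KO mice, against -0.004 and -0.002 over all genes. The test was limma across all genes with Benjamini-Hochberg adjustment and a threshold of 0.05.

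**Figure D1:**
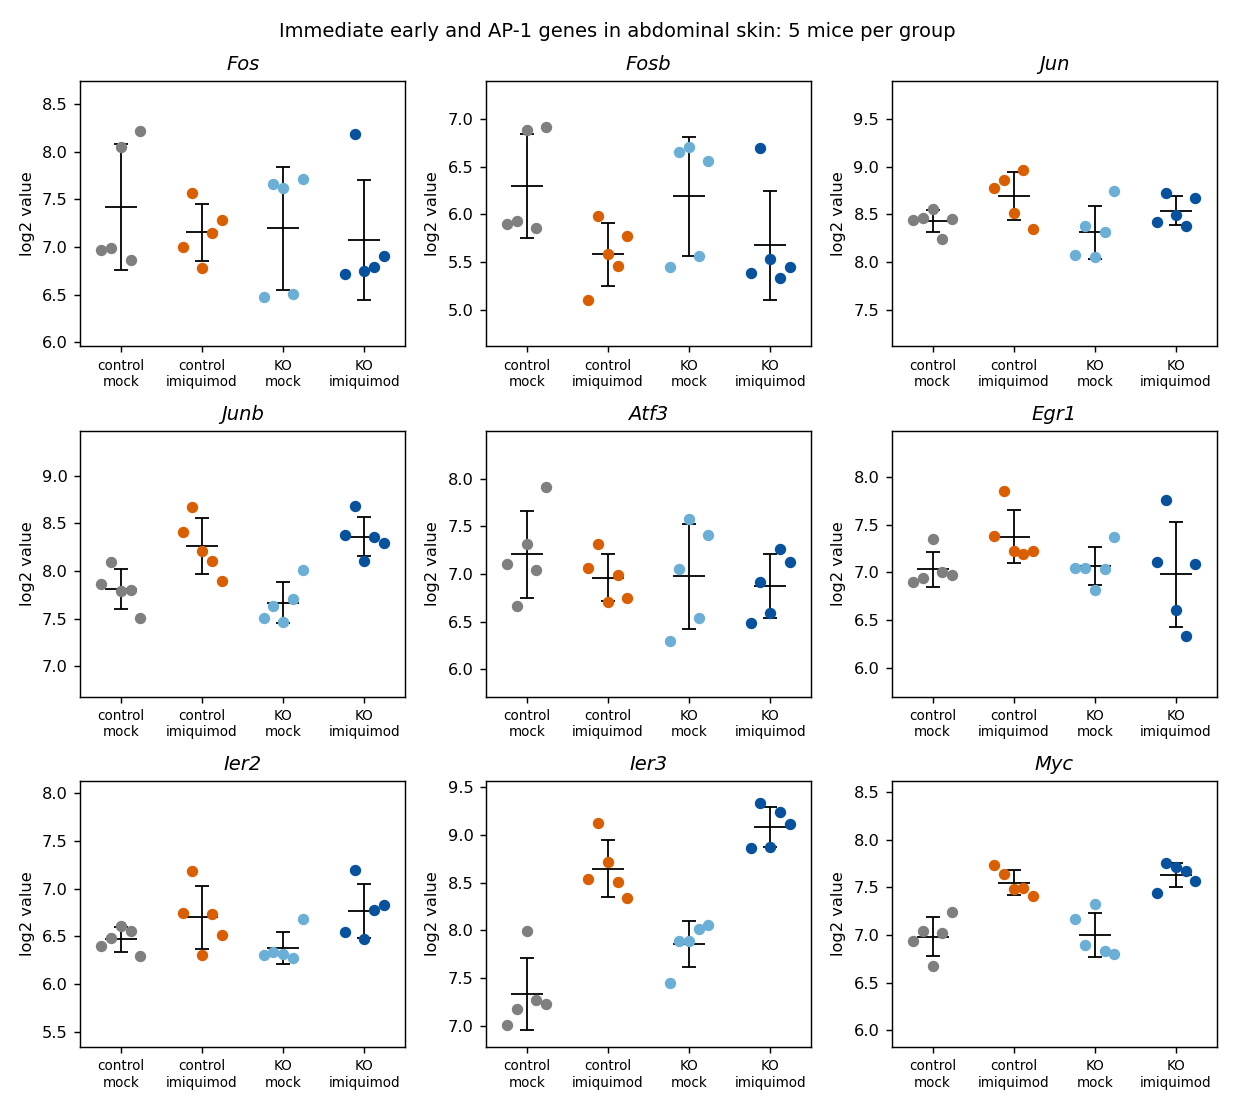
Log2 value of each of the 9 measured members (y axis, log2) in the 4 groups (x axis), 1 point per mouse in the order of replicate number, with the mean (bar) and SD (whiskers, n = 5). Every panel spans the same range of log2 units; the imiquimod mice of Ier3 and Myc lie above the mock mice of the same genotype, while Fos and Fosb are split within the mock groups.

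Ier3 (probe set 17337228) lies at chr17:35821713-35822911 in GRCm38. In mock controls it read 7.01, 7.17, 7.99, 7.27 and 7.23 in replicates 1 to 5. In imiquimod-treated controls it read 8.54, 9.12, 8.72, 8.51 and 8.34. Every treated control thus lay above every mock control, and replicate 3 was the highest of the mock mice. In mock KO skin Ier3 read 7.45, 7.89, 7.89, 8.01 and 8.06, and in imiquimod-treated KO skin 8.86, 9.33, 8.87, 9.24 and 9.11. The KO groups did not overlap either. The log2 difference was 1.31 ± 0.17 in controls (SE, n = 5 per group, adjusted p = 2.26e-05) and 1.22 ± 0.17 in KO mice (adjusted p = 3.31e-05). Both calls held in all 33 alternatives, with values from 1.19 to 1.48 in controls and from 1.12 to 1.43 in KO mice.

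Myc (probe set 17311846) lies at chr15:61985341-61990361. In mock controls it read 6.94, 7.04, 6.68, 7.02 and 7.24 and in treated controls 7.73, 7.64, 7.48, 7.49 and 7.41. In KO mice it read 7.17, 6.89, 7.32, 6.83 and 6.80 under mock treatment and 7.44, 7.76, 7.71, 7.67 and 7.57 under imiquimod. No treated mouse overlapped with the mock mice of its genotype, and the mock mouse nearest to the treated ones was control replicate 5 and KO replicate 3. The log2 difference was 0.57 ± 0.11 in controls (SE, n = 5 per group, adjusted p = 0.00193) and 0.63 ± 0.11 in KO mice (adjusted p = 0.000409), and both calls held in all 33 alternatives.

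Junb (probe set 17511259) lies at chr8:84976909-84978748. It read 7.86, 8.09, 7.79, 7.80 and 7.51 in mock controls and 8.41, 8.67, 8.21, 8.11 and 7.90 in treated controls. These groups overlapped, since replicate 2 of the mock mice lay above replicate 5 of the treated ones. The log2 difference in controls was 0.45 ± 0.14 (SE, n = 5 per group), and its adjusted p = 0.0447 lay close to the threshold. In KO skin Junb read 7.51, 7.63, 7.47, 7.71 and 8.01 under mock treatment and 8.38, 8.68, 8.10, 8.36 and 8.29 under imiquimod, with no overlap. There the log2 difference was 0.70 ± 0.14 (SE, n = 5 per group, adjusted p = 0.0013). The control call was lost in 17 of 33 alternatives: with quantile normalization (adjusted p = 0.0707), with hair or adipocyte markers as a covariate (0.064 and 0.0894), with only the groups compared (0.0794) and without any of 13 single arrays, with adjusted p up to 0.136. These were mock control replicates 1, 3, 4 and 5, treated control replicates 1, 2, 3 and 4, mock KO replicates 2 and 4, and treated KO replicates 1, 4 and 5. The KO call was lost only with adipocyte markers as a covariate (0.55, adjusted p = 0.053).

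Non-overlap between treated and mock mice was found upward for 2 of 9 members in controls (Ier3 and Myc) and for 3 of 9 in KO mice, where 5.6% and 7.16% of all genes did the same. No member lay wholly below, as 2.74% and 6.53% of all genes did. Markers of other cells moved between the same groups. The mean of the keratinocyte markers went from 10.10 to 10.63 in mock controls to 10.99 to 11.18 in treated ones, and from 10.33 to 10.66 to 11.04 to 11.26 in KO mice; 4 of 6 passed upward in controls and 3 of 6 in KO mice. The 7 neutrophil markers had means of 4.57 to 4.83 in mock and 5.55 to 6.79 in treated controls, and of 4.64 to 5.26 and 7.03 to 8.66 in KO mice, with 4 and 6 of 7 passing upward. Of 7 macrophage markers 3 passed upward in controls and 2 in KO mice, and of 7 fibroblast markers 4 and 3 passed downward. The 14 hair shaft and follicle markers had the largest median shift, -3.03 in controls and -2.24 in KO mice. Their group means went from 9.22 to 6.44 in controls and from 8.83 to 6.77 in KO mice. In limma 0 of 14 passed, while 14 and 6 had an unadjusted p under 0.05, against 23.9% and 31.2% of all genes. The part of these cell populations in the members' differences was not tested.

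The FOS family and Atf3 did not pass in either genotype. Fos, the partner of JUN proteins in AP-1, had log2 differences of -0.26 ± 0.33 in controls (SE, n = 5 per group, 95% interval -0.95 to 0.43, adjusted p = 0.723) and -0.12 ± 0.33 in KO mice (-0.81 to 0.56, adjusted p = 0.861). Fosb, its close relative, was at -0.72 ± 0.30 in controls (-1.35 to -0.08, adjusted p = 0.147) and -0.51 ± 0.30 in KO mice (-1.14 to 0.12, adjusted p = 0.279). The intervals of Fosb and Fos still hold changes of over 1.5-fold downward in both genotypes. For Fosb in controls, hair markers as a covariate moved the value to -1.11 and past the threshold (adjusted p = 0.0329), and skeletal muscle markers did so at -0.71 (adjusted p = 0.0465). In KO mice, where muscle and adipocyte markers were lower under imiquimod (5 of 8 and 4 of 5 passing), muscle markers as a covariate turned the sign of Fos to 0.64, of Fosb to 0.18 and of Atf3 to 0.45, none past the threshold. Without the 4 arrays apart in hair markers, Fos, Fosb and Atf3 in KO mice were at 0.07, -0.30 and 0.15, and Fos and Atf3 in controls at -0.09 and -0.01, none past the threshold. Atf3, a stress-induced bZIP factor that can repress, was at -0.24 ± 0.24 in controls and -0.10 ± 0.24 in KO mice (SE, n = 5 per group, adjusted p = 0.626 and 0.84).

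Jun, Egr1 and Ier2 did not pass either. Jun, which encodes c-JUN, the main JUN partner of FOS, ran from 8.24 to 8.55 in mock controls, 8.35 to 8.96 in treated controls, 8.05 to 8.74 in mock KO mice and 8.38 to 8.72 in treated KO mice. Its log2 difference was 0.26 ± 0.13 in controls (SE, n = 5 per group, 95% interval -0.01 to 0.53, adjusted p = 0.22) and 0.23 ± 0.13 in KO mice (-0.04 to 0.50, adjusted p = 0.253). Ier2, a small nuclear early response protein gene, had 0.23 ± 0.15 in controls (adjusted p = 0.373) and 0.38 ± 0.15 in KO mice (SE, n = 5 per group, 95% interval 0.08 to 0.69, adjusted p = 0.0681). The Ier2 value in KO mice passed in 5 of 33 alternatives, among them without mock KO replicate 5 (0.46, adjusted p = 0.0375), without treated KO replicate 3 (0.46, adjusted p = 0.0381) and without treated control replicate 2 (0.38, adjusted p = 0.0368). Egr1, a zinc finger early response factor, was at 0.34 ± 0.20 in controls (SE, n = 5 per group, 95% interval -0.07 to 0.75, adjusted p = 0.315) and -0.09 ± 0.20 in KO mice (-0.49 to 0.32, adjusted p = 0.833). The Egr1 value in KO mice had no stable sign, running from -0.28 without treated KO replicate 2 to 0.09 with muscle markers as a covariate, and was -0.18 without the 4 arrays apart in hair markers.

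**Figure D2:**
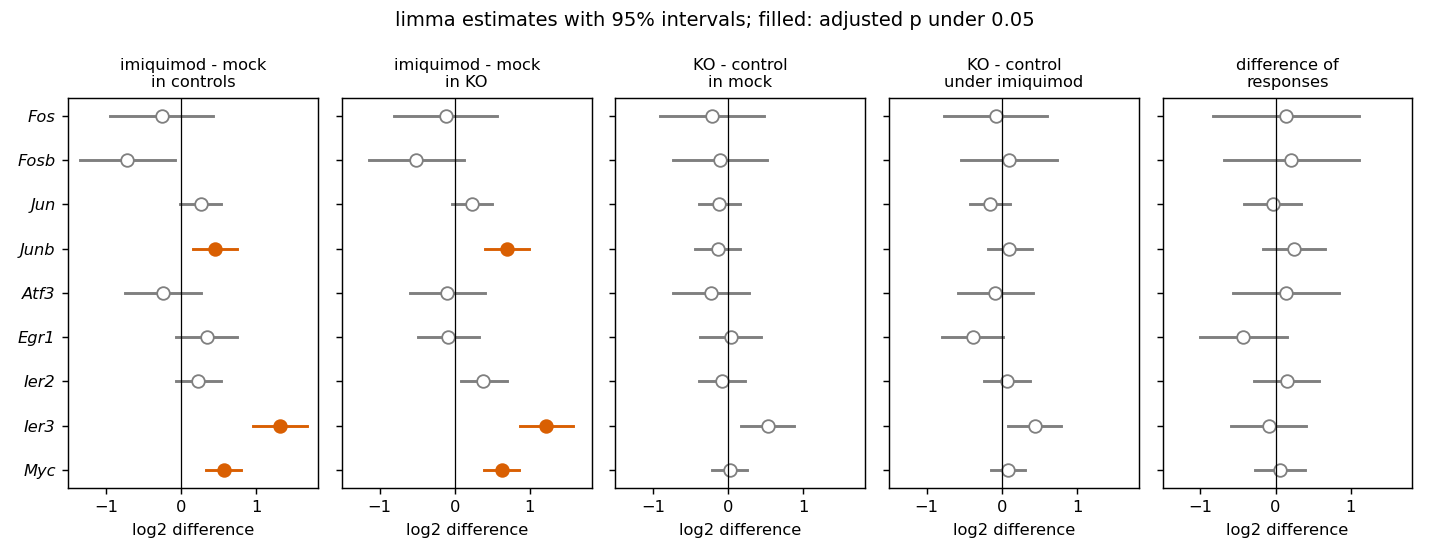
Log2 difference (x axis) of each measured member (y axis) in the 5 comparisons, from the limma fit over all genes; points are estimates, lines are 95% intervals and filled orange points have an adjusted p under 0.05. Junb, Ier3 and Myc are filled in both imiquimod comparisons and no member is filled in the 3 comparisons that involve genotype.

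Genotype changed no member past the threshold. In mock skin 0 of 9 members passed in limma, where 0.00902% of all genes did, and 1 of 9 had an unadjusted p under 0.05, where 3.19% of all genes did. That member was Ier3, with means of 7.86 ± 0.24 in KO and 7.33 ± 0.38 in control skin (SD, n = 5 each) and a log2 difference of 0.53 ± 0.17 (SE, adjusted p = 0.999). The groups overlapped through control replicate 3 at 7.99, and without that mouse the difference was 0.69 (adjusted p = 0.585). Under imiquimod 0 of 9 passed, against 0.546% of all genes, and again Ier3 alone had an unadjusted p under 0.05, as 10% of all genes did. There it stood at 9.08 ± 0.21 in KO and 8.65 ± 0.30 in control skin (SD, n = 5 each), a log2 difference of 0.44 ± 0.17 (SE, adjusted p = 0.354), with overlap. Egr1 had the lowest estimate under imiquimod, -0.39 ± 0.20 (SE, n = 5 per group, 95% interval -0.80 to 0.01, adjusted p = 0.516), with KO values of 7.11, 7.76, 6.61, 6.33 and 7.09 against 7.38, 7.85, 7.23, 7.19 and 7.22 in controls. No member was free of overlap between the genotypes, where in mock skin 0.189% of all genes lay wholly higher and 0.221% wholly lower in KO mice, and under imiquimod 1.3% and 1.17%. The other 7 members had estimates from -0.23 to 0.02 in mock and from -0.16 to 0.10 in imiquimod skin. For Myc the 95% interval was -0.22 to 0.25 in mock and -0.15 to 0.31 in imiquimod skin, and for Junb -0.44 to 0.15 and -0.19 to 0.40. With skeletal muscle markers as a covariate the estimate for Fos under imiquimod moved from -0.08 to 0.64 and that for Fosb from 0.10 to 0.75 (adjusted p = 0.392 and 0.252); 7 of 8 of these markers had an unadjusted p under 0.05 between the genotypes there, and 2 of 7 neutrophil markers passed upward in KO mice.

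The response to imiquimod was also compared between the genotypes. In limma 0 of 9 members passed, as did 0.018% of all genes, and 0 of 9 had an unadjusted p under 0.05, against 6.75% of all genes. The difference of responses, KO minus control, was -0.09 ± 0.24 for Ier3 (SE, n = 5 per group, 95% interval -0.59 to 0.41), 0.06 ± 0.16 for Myc (-0.27 to 0.39) and 0.25 ± 0.20 for Junb (-0.17 to 0.66). The lowest was that of Egr1, -0.43 ± 0.28 (-1.0 to 0.15, adjusted p = 0.828). Over the 4 groups, mean Ier3 ran in the order mock control (7.33), mock KO (7.86), treated control (8.65) and treated KO (9.08), of which neighbours of the same treatment overlapped. Mean Myc ran from 6.98 in mock control and 7.0 in mock KO to 7.55 and 7.63 in treated control and KO mice, and neither pair of the same treatment differed beyond its spread. Mean Junb ran from 7.67 in mock KO and 7.81 in mock control to 8.26 in treated control and 8.36 in treated KO mice.

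Within groups the mice differed widely in Fos (probe set 17277387, chr12:85473890-85477274) and Fosb (probe set 17487211, chr7:19302696-19310118). Fos in mock controls read 6.97, 6.99, 8.05, 6.86 and 8.22 in replicates 1 to 5, so that replicates 3 and 5 stood over 1 log2 unit above the other mice. In mock KO mice it read 6.48, 7.66, 7.62, 6.51 and 7.71, with replicates 2, 3 and 5 high. Treated controls were closer together, at 7.0, 7.57, 6.78, 7.15 and 7.28. In treated KO mice Fos read 6.72, 8.19, 6.75, 6.79 and 6.91, and only replicate 2 was high. Fosb followed mouse by mouse. It read 5.90, 5.93, 6.88, 5.86 and 6.91 in mock controls and 5.45, 6.65, 6.71, 5.56 and 6.56 in mock KO mice. In treated mice it read 5.10, 5.98, 5.58, 5.46 and 5.77 in controls and 5.38, 6.69, 5.53, 5.33 and 5.45 in KO mice. The same mice were high in both genes in each mock group, and replicate 2 was highest in both genes in each treated group.

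This was measured over the 20 arrays as the correlation of deviations from the group means, with arrays permuted within groups. For Fos and Fosb Pearson's r was 0.96 (permutation p = 0.00018) and Spearman's rho 0.90 (permutation p = 0.0005), with adjusted p = 0.00648 and 0.018 over the 36 pairs of members. Without the 2 arrays farthest in Fos r was 0.94, and without the 4 arrays that stood apart in hair markers 0.96. Fos and Atf3 had r = 0.69 (permutation p = 0.00663, adjusted 0.0336) and rho = 0.74 (permutation p = 0.00399, adjusted 0.058), and r = 0.73 without the farthest 2; without the 4 arrays apart in hair markers r was 0.61 and no longer passed (adjusted p = 0.0862). Among Junb, Egr1, Ier2 and Jun, r was 0.74 for Junb and Ier2 (permutation p = 0.00162, adjusted 0.0292), 0.70 for Egr1 and Ier2 (permutation p = 0.00508, adjusted 0.0336), and 0.63 for Jun and Ier2 (permutation p = 0.00746, adjusted 0.0336). Their rho values were 0.59, 0.58 and 0.67, with permutation p = 0.0148, 0.0277 and 0.00483 and adjusted p = 0.0847, 0.0847 and 0.058, and r without the farthest 2 was 0.59, 0.76 and 0.55. In all, 15 of 36 pairs passed with Pearson's r and 1 of 36, Fos and Fosb, with Spearman's rho. The share of pairs passing among all genes was not computed. These counts therefore do not show a trait particular to the members. Fos also passed with Egr1, Ier3 and Ier2 (r = 0.55, 0.53 and 0.50, permutation p = 0.0177, 0.0195 and 0.017, adjusted 0.0478 each), and Ier3 with Ier2 (r = 0.60, permutation p = 0.00549, adjusted 0.0336) and Egr1 (r = 0.49, permutation p = 0.0155, adjusted 0.0478). Without the 4 arrays apart in hair markers r of Fos was 0.75 with Egr1, 0.70 with Ier2 and 0.70 with Jun, and all 3 pairs passed (permutation p = 0.00158, 0.00018 and 0.0042, adjusted 0.019, 0.00648 and 0.0306). The pairs of Fos with Junb (r = 0.16, permutation p = 0.514) and of Fosb with Junb (r = 0.10, permutation p = 0.682) did not pass (r = 0.53 and 0.46 without the 4 arrays, adjusted permutation p = 0.1 and 0.158), nor did any pair with Myc, whose r with the other 8 members ran from -0.27 to 0.28.

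**Figure D3:**
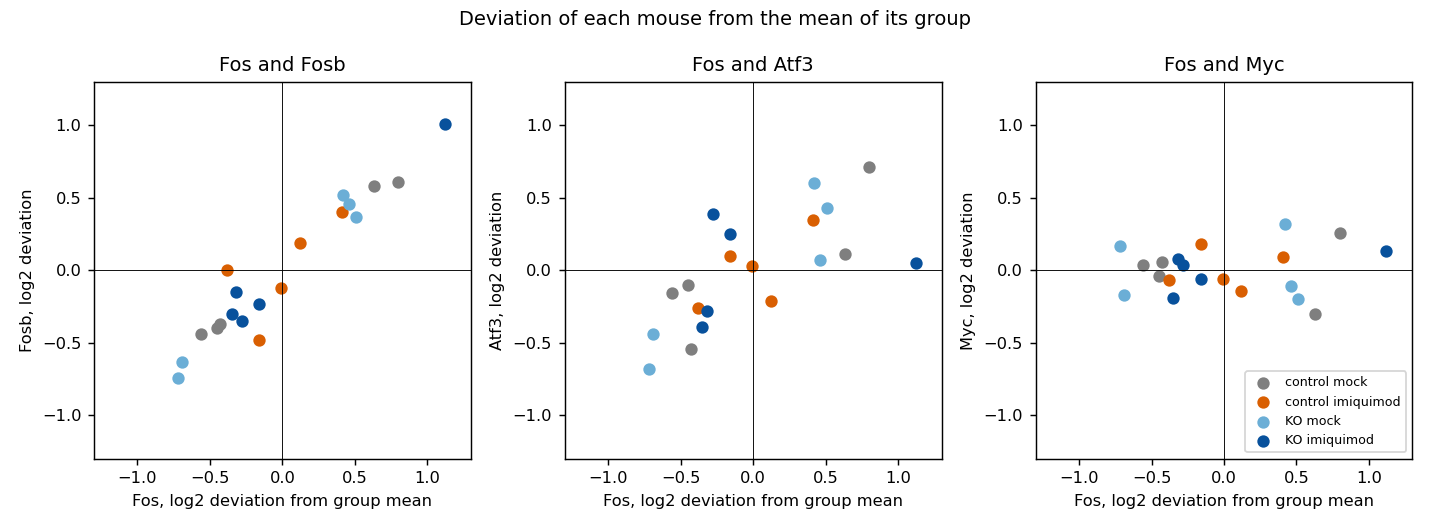
Deviation of each mouse from the mean of its group (log2 units) in Fos (x axis) against Fosb, Atf3 and Myc (y axes), 1 point per mouse coloured by group. Points of Fosb lie close to a line (r = 0.96), those of Atf3 scatter around one (r = 0.69), and those of Myc show little relation to Fos (r = 0.10).

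The genes most like each member were named by the same measure over all genes. The 3 most like Fos were Fosb (r = 0.962), Dusp1 (0.89), which encodes a phosphatase that switches MAP kinases off, and Nr4a1 (0.86), an early response nuclear receptor gene. The 3 most like Fosb were Fos, Nr4a1 (0.858) and Dusp1 (0.851). Dusp1 read 9.10 and 9.59 in mock control replicates 3 and 5 and 8.27 to 8.66 in the other mock controls. It read 8.90, 9.33 and 9.05 in mock KO replicates 2, 3 and 5 and 8.26 and 8.34 in the remaining KO pair. The mock mice high in Fos were thus also high in Dusp1. Btg2, an antiproliferative early gene, was among the 3 most like Egr1 (r = 0.759) and Ier2 (0.787), and Klf6, an early zinc finger factor gene, among those most like Atf3 (0.864). The other genes most like Atf3 were Ndufs3 (0.891) and Emilin1 (0.864). For Ier2 they were Rnf215 (0.815) and Olfr561 (0.80), and for Egr1 Olfr829 (0.778) and Nppb (0.758). The genes most like Ier3 were Ubald1, Scamp2 and Mfge8 (r = 0.884, 0.859 and 0.857), those most like Junb were Smox, Anks1 and Rabggta (0.853, 0.85 and 0.831), and those most like Myc were Coa5, Oasl1 and Crls1 (0.795, 0.789 and 0.762). Jun was closest to Rab21 (0.832). These are the highest correlations among all genes, on shared arrays, and are given as a description. Among them Olfr829, close to Egr1, Olfr561, close to Ier2, and Tsga13, close to Jun, had means of 2.58, 2.29 and 2.50, near the low end of the scale.

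Tissue markers differed between the same mice. In mock controls the skeletal muscle markers averaged 9.72 and 10.34 in replicates 3 and 5 and 8.97 to 9.28 in the others, the keratinocyte markers 10.50 and 10.63 against 10.10 to 10.27, and the fibroblast markers 10.44 and 10.94 against 9.76 to 10.15. In mock KO mice replicates 2 and 3 were also the highest in muscle markers (9.73 and 10.04 against 9.20 to 9.28), while replicate 5, as high in Fos, was at 9.28. In treated controls replicate 2, the highest in Fos at 7.57, was also the highest in muscle markers (9.94 against 8.99 to 9.69). In treated KO mice replicate 2, the mouse highest in Fos, had 8.81 in muscle markers, within the range of 8.15 to 9.03 of its group. As a description over the 20 arrays, which share the RNA of each sample, the deviations of Fos had r = 0.65 with those of the muscle and of the keratinocyte markers and 0.53 with the fibroblast markers, and those of Fosb 0.64, 0.67 and 0.55. Fos was as close to endothelium, T cell and macrophage markers (r = 0.64, 0.64 and 0.62). It ran against melanocyte and hair markers (-0.56 and -0.45), as did Fosb (-0.53 and -0.46). Mock control replicates 5 and 3 (6.06 and 9.33) and mock KO replicates 3 and 2 (6.02 and 8.14) were the lowest of their groups in hair markers. Mock KO replicate 5, also high in Fos, was at 10.19. The part of tissue makeup in the spread of Fos and Fosb was not tested.

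Other genes of the pathway were read from lists chosen by function. Among 12 other AP-1 factor genes none passed in controls in limma, though 1 fell without the 4 arrays apart in hair markers. There 2 of the 12 had an unadjusted p under 0.05, against 23.9% of all genes. In KO mice Batf, a partner of JUN proteins in immune cells, was higher by 0.32 ± 0.09 (SE, adjusted p = 0.0099) and Atf7 fell by 0.38 on the log2 scale (adjusted p = 0.00823). The Atf7 call was lost without the 4 arrays apart in hair markers (-0.29, adjusted p = 0.0732) and with muscle or adipocyte markers as a covariate (-0.22 and -0.20, adjusted p = 0.215 and 0.322), and that of Batf with muscle markers (0.32, adjusted p = 0.051). Fosl2 and Jund, the remaining FOS and JUN genes, named after their values were seen, were at -0.02 and 0.04 in controls and at 0.18 and -0.08 in KO mice, with no call. Of 29 other immediate early genes 4 rose in controls, and 6 rose and 3 fell in KO mice, where 6.47% of all genes rose in controls and 11.1% rose and 9.71% fell in KO mice. Arc, an early gene best known in neurons, rose in both (log2 differences 0.48 and 0.47, adjusted p = 0.00119 and 0.000787), as did Klf4, a factor of epidermal differentiation (0.46 and 0.49, adjusted p = 0.0144 and 0.00481). The Klf4 call in controls was lost with hair markers as a covariate (0.23, adjusted p = 0.206) and with quantile normalization (0.38, adjusted p = 0.0535), and its KO value moved to 0.32 with hair and 0.83 with muscle markers, still past the threshold. Klf10, a further Krüppel-like factor gene, rose by 0.42 and 0.62 (adjusted p = 0.016 and 0.00038), and its call in controls was lost without treated control replicate 2 or 3 (adjusted p = 0.0506 and 0.0572) and with hair markers as a covariate (0.23, adjusted p = 0.21). In KO mice Ptgs2, encoding the inducible prostaglandin synthase COX-2, was 3.51-fold higher (adjusted p = 0.00343), while Dusp4, another MAP kinase phosphatase gene, and Egr2 fell by 0.78 and 0.48 on the log2 scale; the Egr2 call was lost with adipocyte markers as a covariate (-0.44, adjusted p = 0.0851). The list's median was 0.02 in controls and 0 in KO mice. Without the 4 arrays apart in hair markers, 3 of these 29 genes rose and 3 fell in controls, 6 rose and 4 fell in KO mice, and 1 was lower in KO than control skin under imiquimod.

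Genes upstream of the members moved both ways. Of 21 MAP kinase and serum response factor genes measured of 26 listed, 5 rose and 2 fell in controls, where 6.47% of all genes rose and 4.37% fell. In KO mice 9 rose and 4 fell, where 11.1% of all genes rose and 9.71% fell. Map3k8, the kinase TPL2 of the ERK route, was 0.69 ± 0.11 higher in treated controls and 0.39 ± 0.11 in treated KO mice (SE; adjusted p = 0.00029 and 0.0166). Its KO call was lost with hair markers as a covariate (0.26, adjusted p = 0.0853). Map2k3, which activates p38, rose by 0.40 and 0.45 (adjusted p = 0.011 and 0.00242). Map3k1 fell in both, by 0.45 and by 0.79 on the log2 scale (adjusted p = 0.00857 and 2.56e-05), and its control call was lost with hair markers as a covariate (-0.31, adjusted p = 0.108). Braf also passed downward in both, and its calls held in 14 of 33 alternatives in controls and 23 of 33 in KO mice. With hair markers as a covariate it stood at -0.14 and -0.27 (adjusted p = 0.56 and 0.0739). In KO mice Elk3, a serum response factor partner, rose by 0.60 (adjusted p = 0.00271). Srf itself passed upward there, with a call that held in 17 of 33 alternatives. In the comparison of genotypes under imiquimod Elk3 had the smallest p of this list (log2 difference 0.52, adjusted p = 0.0967).

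Around Myc, 2 of 10 network genes rose and 2 fell in each genotype. Of all genes 6.47% rose and 4.37% fell in controls, and 11.1% rose and 9.71% fell in KO mice. Mlx, a relative of the MYC partner MAX, rose by 0.49 and 0.74 (adjusted p = 0.00201 and 1.71e-05), and Mga fell by 0.31 and by 0.37 on the log2 scale (adjusted p = 0.0101 and 0.00132), the former lost with hair markers as a covariate (-0.28, adjusted p = 0.0639). Without the 4 arrays apart in hair markers 3 of the 10 fell in controls. Mxd4, which encodes an antagonist of MYC, fell by 0.72 in KO mice (adjusted p = 0.00044). It also passed downward in controls, where the call held in 26 of 33 alternatives with values from -0.59 to -0.32. Mxd1, of the same family, went the other way and passed upward in KO mice. That call held in 25 of 33 alternatives, with values from 0.26 to 0.73. Of 11 MYC target genes measured of 12 listed, 1 rose in controls, and 7 rose and 1 fell in KO mice, against the same shares of all genes. Nop56 and Nop58, which encode nucleolar proteins of ribosome assembly, were 0.78 and 0.77 higher in KO mice (adjusted p = 0.00618 and 0.00487). Both calls were lost with muscle markers (0.23 and 0.28, adjusted p = 0.359 and 0.269) and with adipocyte markers as a covariate (0.24 and 0.25, adjusted p = 0.493 and 0.453), and the probe sets of Nop56 disagreed, their mean giving 0.05 (adjusted p = 0.833). Ccnd2, encoding cyclin D2, fell by 0.80 (adjusted p = 0.00436) and stood at -0.50 with hair and -1.22 with adipocyte markers as a covariate, past the threshold in both. Nme1, a nucleoside diphosphate kinase gene, rose by 1.13 in KO mice (adjusted p = 0.00657) and by 0.92 in controls (adjusted p = 0.0399). The control call of Nme1 was lost without mock control replicate 1, 3 or 5 or treated control replicate 1, 2 or 3 (adjusted p up to 0.124) and with the replicate block (0.057), and the KO call with muscle or adipocyte markers as a covariate (0.63 and 0.76, adjusted p = 0.191 and 0.194). The KO calls of Ncl, Npm1 and Cad were also lost with muscle markers as a covariate (adjusted p = 0.111, 0.511 and 0.559). With adipocyte markers they were lost as well (adjusted p = 0.216, 0.839 and 0.786). Of the genes that rose in KO mice, only Ldha kept its call in all 33 alternatives. The list's median was 0.22 in controls and 0.52 in KO mice. Without the 4 arrays apart in hair markers 2 rose and 2 fell in controls and 5 rose and 1 fell in KO mice. In the difference of responses 0 of 11 passed in limma and 1 had an unadjusted p under 0.05, against 0.018% and 6.75% of all genes.

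Of 12 genes known as AP-1 targets, 4 rose in controls and 8 in KO mice, where 6.47% and 11.1% of all genes rose. None fell, as 4.37% and 9.71% of all genes did. Hbegf, a growth factor for keratinocytes, was 2.71-fold higher in controls and 4.23-fold higher in KO mice (log2 differences 1.44 ± 0.25 and 2.08 ± 0.25, SE, n = 5 per group, adjusted p = 0.000484 and 4.21e-06). Vegfa, which encodes an angiogenic factor, rose by 0.76 and 0.84 (0.37 and 0.55 with hair markers as a covariate, past the threshold in both). Ivl, which encodes involucrin of the cornified envelope, rose by 1.23 and 1.13 (adjusted p = 0.015 and 0.0141). The Ivl call was lost in controls with hair markers as a covariate (1.16, adjusted p = 0.0575) and in KO mice with muscle or adipocyte markers (1.12 and 0.96, adjusted p = 0.0637 and 0.156). Timp1, an inhibitor of matrix proteases, passed in KO mice alone at 2.03 ± 0.32 (SE, n = 5 per group, adjusted p = 0.00013) and was at 0.77 in controls (adjusted p = 0.143), and the difference between the responses did not pass (1.26, adjusted p = 0.625). Mmp13, a collagenase gene, was 2.11-fold higher in KO than control skin under imiquimod (adjusted p = 0.055). Against mock skin, the KO calls of Mmp13 and Plaur were lost with muscle markers as a covariate (adjusted p = 0.112 each). With adipocyte markers they were also lost (adjusted p = 0.214 and 0.184). The KO call of Mmp3 held in 16 of 33 alternatives and was lost in 13 of 20 fits without 1 array. Those of Hbegf, Cd44, Vegfa and Timp1 held in all 33. The list's median was 0.41 in controls and 0.89 in KO mice, and without the 4 arrays apart in hair markers 5 and 9 of the 12 rose. Over all 6 lists, 5 of 20 calls in controls and 8 of 44 in KO mice were lost when some single array was left out.

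**Figure D4:**
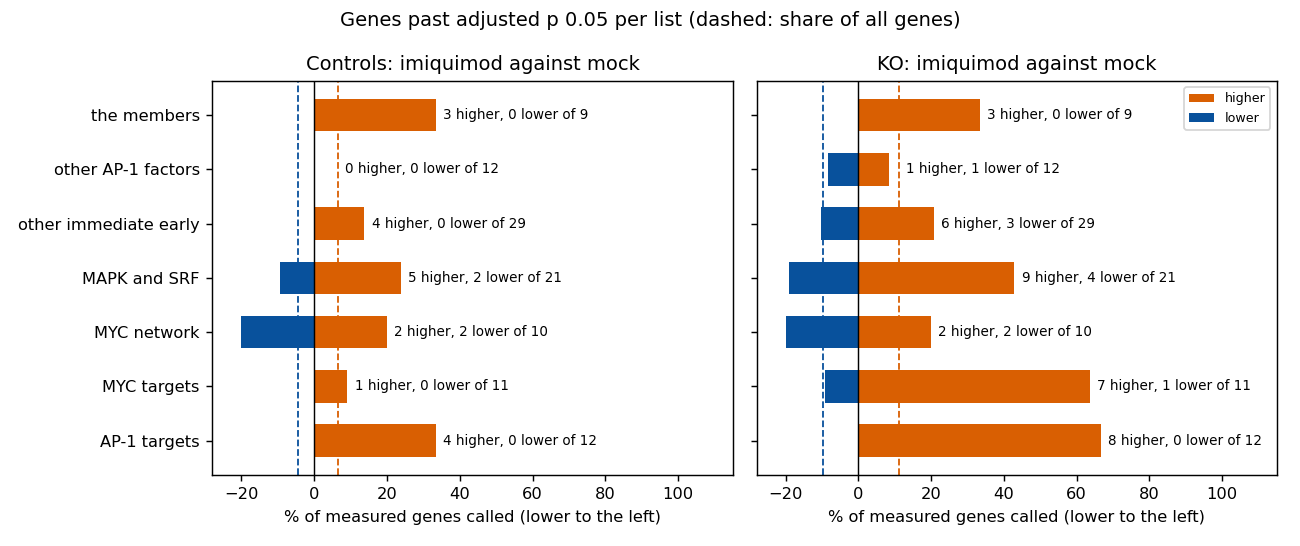
Share of measured genes (x axis, percent) past an adjusted p of 0.05 under imiquimod, higher to the right and lower to the left of 0, for the members and 6 lists of related genes (y axis), in controls and KO mice; dashed lines mark the share of all 22180 genes. In both genotypes 3 of 9 members are higher and 0 lower, and the other AP-1 factors stay near or below the dashed lines.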

How the data were processed

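Total RNA from whole abdominal skin (200 ng) was labelled with the Affymetrix WT PLUS protocol, per the labels. The authors deposited 41345 probe set values per array, taken as log2 from their range of 1.41 to 13.33; no source used here states the log base, summarisation or normalization. Probe sets were named through the platform table: 23521 had 1 symbol, 1814 several and 16010 none, and the brightest stood for a gene. limma 3.58.1 in R 4.3.3 was fitted to 22180 genes and 20 arrays with 1 mean per group (16 residual degrees of freedom), two-sided, with Benjamini-Hochberg adjustment. Dim genes were kept, and leaving them out was an alternative, as were quantile normalization, array weights, the replicate block, tissue markers as covariates and leaving out each array. The number of arrays limits precision. On simulated data the fit recovered 59.7% of genes changed by 0.5 log2 units and 97.0% of those changed by 1.0. There 67 of 22180 genes changed at each of these sizes and 66 by 2.0, in treated controls alone, with 11 false calls. Recovery depends on the share of genes changed, and the genotype comparisons were not simulated. Noise was drawn separately for each gene, so shifts shared between genes were not simulated. Correlations used 100000 permutations within groups. Named were the members, up to 3 genes per list and direction past the threshold, or the smallest p, of which the text gives a part, and the 3 genes most like a member. Fosl2 and Jund fall outside it, as do list genes named only because their calls were lost or held under alternatives. Members and lists were chosen with earlier results of these data known. Mice were not paired by replicate number in the main fit. Deviations of same-numbered mice correlated from -0.709 to 0.516, which cannot show whether the numbers follow a shared litter or day.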

Additional observations from a re-analysis of the deposited data

Results flagged for a closer look

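Among 36 combinations of 9 members and 4 groups, 7 held a mouse whose gap to its nearest neighbour was large against the range of its group (Dixon's criterion, which chance meets in about 1 of 20 groups). In treated KO mice replicate 2 was far above the others in Fos (8.19) and Fosb (6.69); without it the log2 difference of imiquimod against mock in KO mice was -0.40 for Fos (adjusted p = 0.437) and -0.76 for Fosb (adjusted p = 0.0729). Mock control replicate 3 was high in Egr1 (7.35) and Ier3 (7.99). Treated control replicate 2 was high in Egr1 (7.85), and without it the Egr1 difference of imiquimod against mock in controls went from 0.34 to 0.22 (adjusted p = 0.597). Mock KO replicate 5 was high in Ier2 (6.68), and mock KO replicate 1 was low in Ier3 (7.45). The causes were not tested.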

How the results depend on the processing

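The counts of members called, 3, 3, 0, 0 and 0 in the 5 comparisons, moved by no more than 1.5 times in any alternative; in controls they ran from 2 to 4 and in KO mice from 2 to 4. With the replicate number as a block, 3 members passed in controls and 3 in KO mice, and the block changed no call on a member. No call on a member reversed. Of 1476 single values of members under alternatives, 18 lost a call, all of Junb, and 7 gained one, of Fosb and Ier2. Pairs of members past the threshold went from 15 with Pearson's r to 1 with Spearman's rho, and to 14 without the 4 arrays apart in hair markers; the cause was not tested. Zfp36 stayed lower in KO skin in 12 of 12 alternatives in each treatment. With 5 mice per group, SEs in the pairwise comparisons ran from 0.11 for Myc to 0.33 for Fos. A fold rests on the inferred log base.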

Other observations

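Zfp36 is itself an early response gene, and its level by mouse can be read beside Fos. In mock controls Zfp36 read 7.28, 7.45, 7.74, 7.22 and 7.61 in replicates 1 to 5, highest in replicates 3 and 5, the mice high in Fos. In treated controls it read 8.04, 8.40, 7.99, 7.89 and 7.68, highest in replicate 2, the mouse highest in Fos. In mock KO mice it read 5.12, 6.84, 7.12, 4.61 and 3.47: replicates 2 and 3 were high in both genes, while replicate 5, with the highest Fos of its group (7.71), had the lowest Zfp36. In treated KO mice it read 5.47, 7.41, 6.12, 7.18 and 5.82, again highest in replicate 2. These values were looked up after the pattern of Fos had been seen, and no test was made. As a description over the 20 arrays, the deviations of Zfp36 had r = 0.389 with those of Fos, and Zfp36 ranked 3388 among the genes most like Fos. Its r was 0.431 with Fosb and 0.494 with Myc, and ran from -0.254 (Jun) to 0.321 (Atf3) with the other members.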
